A study of Mus musculus with 24 samples.

Results

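Arc, Homer1, Nptx2, Inhba, Rheb and Arl4d are genes that neurons switch on early after synaptic activity and whose proteins act at or near the synapse. These 6 genes were taken by name from the deposited comparison tables, and are 6 of the 38355 genes in the count tables, of which 27576 had at least 1 read. All 6 had enough reads to be tested in every comparison. Polyadenylated RNA was sequenced from the CA1 subfield of the hippocampus, dissected from C57BL/6J mice aged 3 to 5 months. The 24 libraries form 4 groups. Control mice carried floxed Kat2a alleles without Cre (Kat2a fl/fl) and were either left without exposure (control naive, n = 6) or exposed to novelty for 15 min (control novelty, n = 5). Conditional knockout mice (cKO) carried Kat2a fl/fl together with CamKII_alpha-cre+ and were likewise naive (n = 6) or exposed to novelty for 15 min (n = 7). All 4 groups thus carry the floxed Kat2a alleles, and the group with Cre also differs by the transgene itself, with no group carrying Cre without floxed Kat2a. The CamKII-alpha promoter is active in excitatory neurons of the forebrain. The dissected tissue also holds interneurons, glia and vessel cells, and Kat2a was not measured by cell type. The labels do not say whether libraries come from separate mice, nor how long after the start of the exposure the tissue was taken, and p-values measure the spread between these libraries.

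Immediate early genes are transcribed within minutes of strong synaptic input, from promoters that need no new protein to be made first. Some encode transcription factors such as Fos and Egr1, and others, the effectors, encode proteins that change the synapse directly. In hippocampal neurons the effectors include Arc, which drives removal of AMPA-type glutamate receptors from the synapse, the short form of Homer1, which loosens the link between metabotropic glutamate receptors and the postsynaptic scaffold, and Nptx2, a secreted pentraxin that gathers AMPA receptors. Inhba encodes the beta-A subunit of activin, a secreted ligand of the TGF-beta family. Rheb is the small GTPase that turns on the growth kinase complex mTORC1, and Arl4d is a small GTPase of the ARF-like family that recruits cytohesins to the plasma membrane. Kat2a encodes a lysine acetyltransferase that acetylates histone H3.

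The genes are placed on GRCm38 and all are protein coding. Arc is on chromosome 15 at 74669083 to 74672570 on the minus strand. Homer1 is on chromosome 13 at 93303757 to 93404129 on the plus strand and has 12 transcripts in GENCODE M21. The counts are per gene and cannot separate the short Homer1 form from the long one. Inhba is on chromosome 13 at 16011851 to 16027211 on the plus strand, where it overlaps the opposite-strand models B230303A05Rik and Gm48444. The library kit does not mark strand, so reads from any sequence that Inhba shares with these models cannot be told apart. Whether their exons overlap was not tested. Homer1 overlaps the same-strand models Gm47075 and Gm47088. Rheb overlaps the same-strand Gm25363, which had 9 reads in the 24 libraries. Nptx2 is on chromosome 5 at 144545887 to 144557478 on the plus strand, and Rheb on the same chromosome at 24802823 to 24842624 on the minus strand. Arl4d is on chromosome 11 at 101665541 to 101667832 on the plus strand, 0.95 Mb from the floxed Kat2a gene.

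Promoter sequence was available for 4 of the 6 genes (Homer1, Arl4d, Inhba and Rheb), from RefSeq on GRCm38.p6, as windows from 250 bases before to 50 bases after each annotated start. The 250 bases before the start are shown for Homer1 and Arl4d, the 2 of these 4 genes that rose after novelty, and for Inhba, which did not pass the test, so that the letters can be set side by side. Rheb, which did not pass either, is not shown, and its matches are given below. Capitals mark matches to a motif on either strand. The motifs searched were the cAMP response element TGACGTCA, its 5-base core TGACG, the CArG box, the AP-1 site TGACTCA, the E-box CACGTG, the EGR site GCGTGGGCG and the TATA box TATAAA. The core TGACG lies within the full element, so a full element also counts as a match to the core. In background, the cAMP response element is bound by CREB and the CArG box by SRF, both of which serve many activity-induced genes.
Homer1, chr13:93303507-93303756, plus strand: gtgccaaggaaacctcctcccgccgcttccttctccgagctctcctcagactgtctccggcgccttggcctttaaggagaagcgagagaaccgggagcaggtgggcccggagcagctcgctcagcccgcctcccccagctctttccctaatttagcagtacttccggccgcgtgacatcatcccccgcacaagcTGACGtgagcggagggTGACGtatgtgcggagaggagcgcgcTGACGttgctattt
Arl4d, chr11:101665291-101665540, plus strand: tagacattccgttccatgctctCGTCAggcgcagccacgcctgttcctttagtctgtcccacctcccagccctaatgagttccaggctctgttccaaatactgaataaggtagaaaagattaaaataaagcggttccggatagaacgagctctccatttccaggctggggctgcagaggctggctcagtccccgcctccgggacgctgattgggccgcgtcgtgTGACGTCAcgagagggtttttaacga
Inhba, chr13:16011601-16011850, plus strand: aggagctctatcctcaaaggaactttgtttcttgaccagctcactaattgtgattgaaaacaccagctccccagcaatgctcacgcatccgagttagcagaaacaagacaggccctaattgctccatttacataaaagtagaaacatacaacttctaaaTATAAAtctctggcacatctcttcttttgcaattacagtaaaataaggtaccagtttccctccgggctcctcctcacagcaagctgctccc

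The Homer1 window held 3 copies of the core, beginning 56, 40 and 14 bases before the start. At least 1 core was present in 20.8% of all 32851 windows and 3 or more in 1.03%. Homer1 has another annotated start whose window begins at 93307784 and held none of the motifs. Arl4d held the full element 26 to 19 bases before the start, a match found in 1.79% of windows, and a further core on the opposite strand 228 to 224 bases before it. In Inhba the only match was a TATA box 91 to 86 bases before the start, and 13.6% of windows held one. Rheb, which like Inhba did not pass the test, held a core 247 to 243 bases before its start. It also held an E-box 96 to 91 bases before the start, a match found in 7.15% of windows. The CArG box (1.63% of windows), the AP-1 site (5.2%) and the EGR site (0.612%) had no match in the windows of these 4 genes. These are matches of letters and say nothing of binding.

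**Figure D1:**
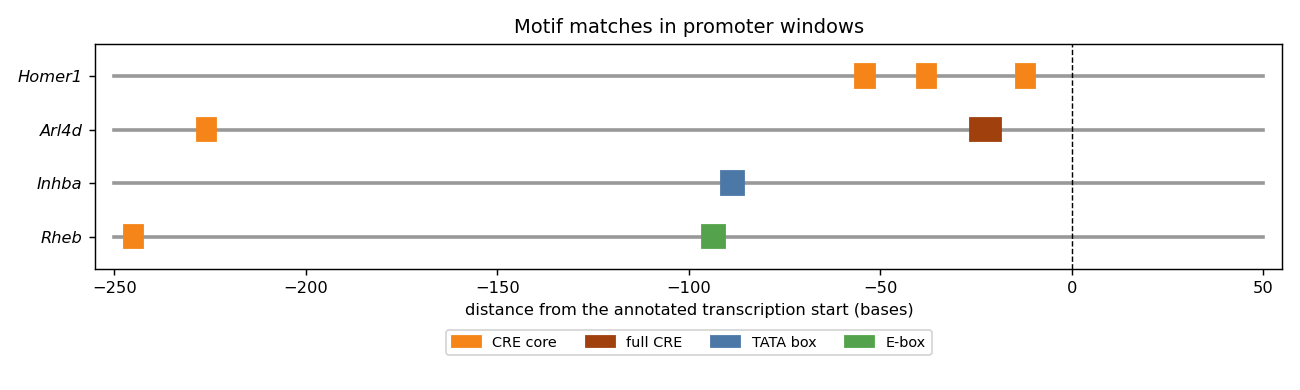
Positions of motif matches in the promoter windows of Homer1, Arl4d, Inhba and Rheb. The x axis is the distance in bases from the annotated start (dashed line), each grey bar is a window and each coloured block a match (CRE, the cAMP response element). The 3 core matches of Homer1 and the full element of Arl4d lie close to the start.

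Reads assigned to genes ranged from 10700954 to 35754503 per library. Levels are given in CPM, a gene's reads scaled to a common library size, with TMM factors that adjust for composition. Kat2a, the targeted gene, stood at 63.6 ± 3.98 CPM (mean ± SD, n = 6) and 60.2 ± 3.57 CPM (n = 5) in naive and novelty controls. It was at 36.2 ± 2.42 CPM (n = 6) and 35.1 ± 2.26 CPM (n = 7) in naive and novelty cKO libraries, none of which reached a control library. The 6 markers of CA1 pyramidal neurons all had reads, with sums of 1019 to 1376 CPM per library. Markers of dentate granule neurons (6 of 6), interneurons (5 of 5), astrocytes (5 of 5), oligodendrocytes (5 of 5), microglia (5 of 5), endothelium (4 of 4), choroid plexus (4 of 4) and CA3 and CA2 neurons (6 of 6) also had reads, so the tissue holds other cell types beside CA1 neurons. In bulk tissue, fewer cells of a type and less RNA per cell cannot be told apart. A gene is said to have passed when its edgeR adjusted p, over all genes tested, was below 0.05.

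Homer1, Arc, Nptx2 and Arl4d rose after novelty in control mice, by 1.5 to 2.1-fold, and Inhba and Rheb did not pass. In cKO mice Homer1, Arc and Arl4d rose and Nptx2, Inhba and Rheb did not pass. Thus 4 of 6 rose in controls, where 1.02% of genes were called higher and 1.22% in either direction, and 3 of 6 rose in cKO mice, where 1.92% were called higher and 2.41% in either direction. None of the 6 passed between genotypes in naive mice, between genotypes after novelty, or in the test of the genotype by novelty interaction. Rheb was lower in cKO mice when both exposures were averaged. The 6 were chosen as known activity-induced genes, a name that Inhba and Rheb, which passed in neither genotype, were not shown to meet in these libraries.

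Homer1 varied least of the 4 rising genes among the novelty libraries, with a coefficient of variation of 8.27% in controls and 8.81% in cKO mice. It read 122 CPM in the lowest control naive library, 126 at the median and 157 in the highest. The 5 control novelty libraries read 262, 307, 281, 248 and 265 CPM. In cKO mice the lowest, median and highest naive libraries read 105, 112.0 and 122 CPM and the novelty libraries 239, 282 and 303 CPM. Every novelty library was above every naive library in both genotypes. Non-overlap in this direction was seen for 1.58% of genes in controls and 1.48% in cKO mice. The log2 fold change was 1.05 (SE 0.07, adjusted p = 6.2e-07) in controls, second of 16100 genes by p, and 1.26 (SE 0.06, adjusted p = 3.41e-09) in cKO mice, first of 16339. All 11 and all 13 fits that left out 1 library called it, with log2 fold changes of 1.02 to 1.11 and 1.23 to 1.29.

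Homer1 in the naive state was at 131 ± 12.9 CPM in controls (SD, n = 6) and 114 ± 6.92 in cKO mice (SD, n = 6). The difference of -0.20 (95% interval -0.33 to -0.07) did not pass (adjusted p = 0.136), in a comparison that called 0.801% of genes. Without control naive library 2, the highest of its group, it was -0.15 (adjusted p = 0.143). After novelty both genotypes stood at 272 CPM, with SDs of 22.5 (n = 5) and 23.96 (n = 7), and the log2 difference was 0.00 (95% interval -0.13 to 0.14, adjusted p = 0.997), where 4.53% of genes were called. The estimate of the rise in cKO mice exceeded that in controls by 0.20 on the log2 scale (95% interval 0.01 to 0.39, edgeR adjusted p = 1), which did not pass. No gene at all passed in that interaction (0.0%), with 688 genes at an unadjusted p below 0.05 by edgeR and 792 by DESeq2, which also called 0.

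Arc rose in both genotypes, with an uneven response among the cKO novelty libraries. Control naive libraries read 47.5 CPM at the lowest, 53.5 at the median and 62.7 at the highest, and the 5 control novelty libraries 124, 145, 77.0, 117 and 124 CPM. The cKO naive libraries read 36.3, 47.6 and 60.9 CPM (lowest, median, highest). The 7 cKO novelty libraries were 164, 131, 62.4, 247, 85.9, 295.5 and 127 CPM for libraries 1 to 7, so library 3 was barely above the highest naive library and libraries 4 and 6 were well above all others. Naive and novelty libraries did not overlap in either genotype. The log2 fold change was 1.10 (SE 0.14, adjusted p = 0.00173) in controls and 1.76 (SE 0.34, adjusted p = 0.021) in cKO mice. In controls all 11 fits without 1 library called it, and the call was lost in the fit of all 24 libraries with a shared spread (log2 1.11, adjusted p = 0.0568) and in libraries numbered 1 to 3 (1.26, adjusted p = 0.201). The call in cKO mice was lost in 4 of 13 such fits, those without cKO naive library 2, 3, 4 or 6, with adjusted p up to 0.062 and log2 fold changes of 1.69 to 1.77.

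In the cKO novelty group the coefficient of variation of Arc was 53.3%, the 33rd highest of 13242 genes with a mean of at least 50 reads, where the median gene had 7.55%. In control novelty libraries it was 21.3% against a median gene of 7.09%. The means after novelty were 117 ± 24.9 CPM in controls (SD, n = 5) and 159 ± 84.6 in cKO mice (SD, n = 7), and the ranges overlapped. The log2 difference between genotypes after novelty was 0.44 (95% interval -0.39 to 1.27, adjusted p = 0.545), and in naive mice it was -0.21 (95% interval -0.46 to 0.04, adjusted p = 0.472). The difference of the responses was 0.65 (95% interval -0.18 to 1.47, adjusted p = 1). The last interval holds both no difference and a response 2.78-fold larger in cKO mice.

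Nptx2 had the smallest rise of the 4 genes that passed in controls. Naive control libraries read 20.6, 23.2 and 24.96 CPM (lowest, median, highest) and the control novelty libraries 42.7, 30.4, 30.7, 35.0 and 33.5 CPM, with no overlap. Among cKO naive libraries the values were 15.0, 21.3 and 28.7 CPM, and among cKO novelty libraries 28.0, 30.2 and 41.3 CPM, so that the highest naive library was just above the lowest novelty library. The log2 fold change was almost the same in both genotypes, 0.59 (SE 0.09, adjusted p = 0.00196) in controls and 0.58 (SE 0.15, adjusted p = 0.0578) in cKO mice. The difference of the responses was -0.02 (95% interval -0.40 to 0.37, adjusted p = 1).

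The call of Nptx2 in cKO mice turned on the method and on 1 library. It passed without cKO naive library 5 (log2 0.67, adjusted p = 0.0276), in DESeq2 (adjusted p = 0.00213) and in a fit of all 24 libraries with a shared spread (adjusted p = 0.00834). The summed CPM of the dentate granule neuron markers was 238 in cKO naive library 5, against 88.1 to 204 in the other 5 of that group, whose highest Nptx2 value was 26.9 CPM at a dentate sum of 93.9. In control novelty the library with the highest Nptx2 (42.7 CPM) also had the highest dentate sum (276 CPM), and the other 4 had sums of 108 to 175. Both were also highest of their group in control naive library 2 (24.96 CPM, sum 203) and cKO novelty library 2 (41.3 CPM, sum 187). In cKO naive library 3 both were lowest, at 15.0 CPM of Nptx2 and a dentate sum of 88.1. In the other groups the lowest Nptx2 and the lowest dentate sum fell in different libraries. The part of dentate tissue in these values was not tested.

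Inhba, the activin subunit, was the least abundant of the genes, with 30 to 131 reads per library, and its groups overlapped throughout. Control naive libraries read 2.32, 2.76 and 3.59 CPM (lowest, median, highest) and control novelty libraries 3.96, 3.74, 2.65, 3.05 and 3.02 CPM. In cKO mice the naive libraries read 1.49, 2.76 and 3.25 CPM and the novelty libraries 1.90, 3.79 and 5.13 CPM. The log2 fold change after novelty was 0.25 (95% interval -0.06 to 0.56, adjusted p = 0.604) in controls and 0.43 (95% interval -0.06 to 0.93, adjusted p = 0.435) in cKO mice. Averaged over both genotypes it was 0.34 (SE 0.15, adjusted p = 0.198). The intervals within each genotype reach up to a 1.47-fold rise in controls and a 1.90-fold rise in cKO mice.

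Arl4d, the ARF-like GTPase, rose from a low level in both genotypes. Control naive libraries read 4.85, 5.79 and 6.60 CPM (lowest, median, highest) and control novelty libraries 8.71, 11.4, 11.3, 15.1 and 15.7 CPM. In cKO mice the naive libraries read 5.63, 6.23 and 6.54 CPM and the novelty libraries 6.82, 9.81 and 17.7 CPM, again without overlap. The lowest cKO novelty library was thus only slightly above the highest naive one, while library 4 stood far above the next highest, at 10.5 CPM. The log2 fold change was 1.08 (SE 0.14, adjusted p = 0.000789) in controls and 0.75 (SE 0.18, adjusted p = 0.0385) in cKO mice. The difference of the responses was -0.34 (95% interval -0.85 to 0.17, adjusted p = 1).

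The rise of Arl4d in controls was called in all 11 fits without 1 library, and the rise in cKO mice in 3 of 13, those without cKO novelty library 1, 2 or 4. Without library 4 the log2 fold change was 0.55 (adjusted p = 0.00917), and in the 10 fits that lost the call adjusted p ran up to 0.0872. The call was also lost without a filter on low counts (log2 0.74, adjusted p = 0.0893). That library also had the highest summed CPM of oligodendrocyte markers in its group, 5475 against 2812 to 3599 in the other 6. The part of oligodendrocyte content in the Arl4d value was not tested. In controls, Arl4d averaged 6.31 CPM in naive libraries and 10.4 CPM in novelty libraries among those numbered 1 to 3 (log2 fold change 0.73), and 5.37 and 15.4 CPM among those numbered 4 and above (log2 fold change 1.53). The labels do not say what the numbers stand for.

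Rheb was abundant and nearly level across the groups. Control naive libraries read 117, 121 and 142.5 CPM (lowest, median, highest) and control novelty libraries 125, 129, 138, 128 and 135 CPM. The cKO naive libraries read 110.0, 116 and 118.5 CPM and the cKO novelty libraries 117.0, 123 and 132 CPM. Naive and novelty libraries overlapped in both genotypes, and the genotypes overlapped in both exposures. Novelty gave a log2 fold change of 0.08 (95% interval -0.03 to 0.19, adjusted p = 0.667) in controls and 0.10 (95% interval 0.03 to 0.16, adjusted p = 0.142) in cKO mice, so that a rise as large as that of Nptx2 lies outside both intervals. Averaged over genotypes the difference was 0.09 (SE 0.03, adjusted p = 0.0645), and it passed without control naive library 2 (0.11, adjusted p = 0.00217), without cKO novelty library 2 (0.10, adjusted p = 0.0348) and in DESeq2 (0.09, adjusted p = 0.0182).

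Rheb was lower in cKO mice by 6.31% when both exposures were averaged (log2 -0.09, SE 0.03, adjusted p = 0.0341). In that comparison 6.32% of genes were called lower and 12% in either direction, so 1 of the 6 genes is near the share of all genes. The call was lost without control novelty library 3 (adjusted p = 0.0724), control novelty library 5 (0.0658) or cKO naive library 1 (0.0595), and with upper-quartile scaling (0.0601). Within each exposure the difference did not pass, at -0.10 in naive mice (adjusted p = 0.37) and -0.09 after novelty (adjusted p = 0.196). The 5 other genes did not pass in the averaged genotype comparison, with log2 differences of -0.10 (Homer1), 0.11 (Arc), -0.05 (Nptx2), 0.01 (Inhba) and -0.09 (Arl4d).

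**Figure D2:**
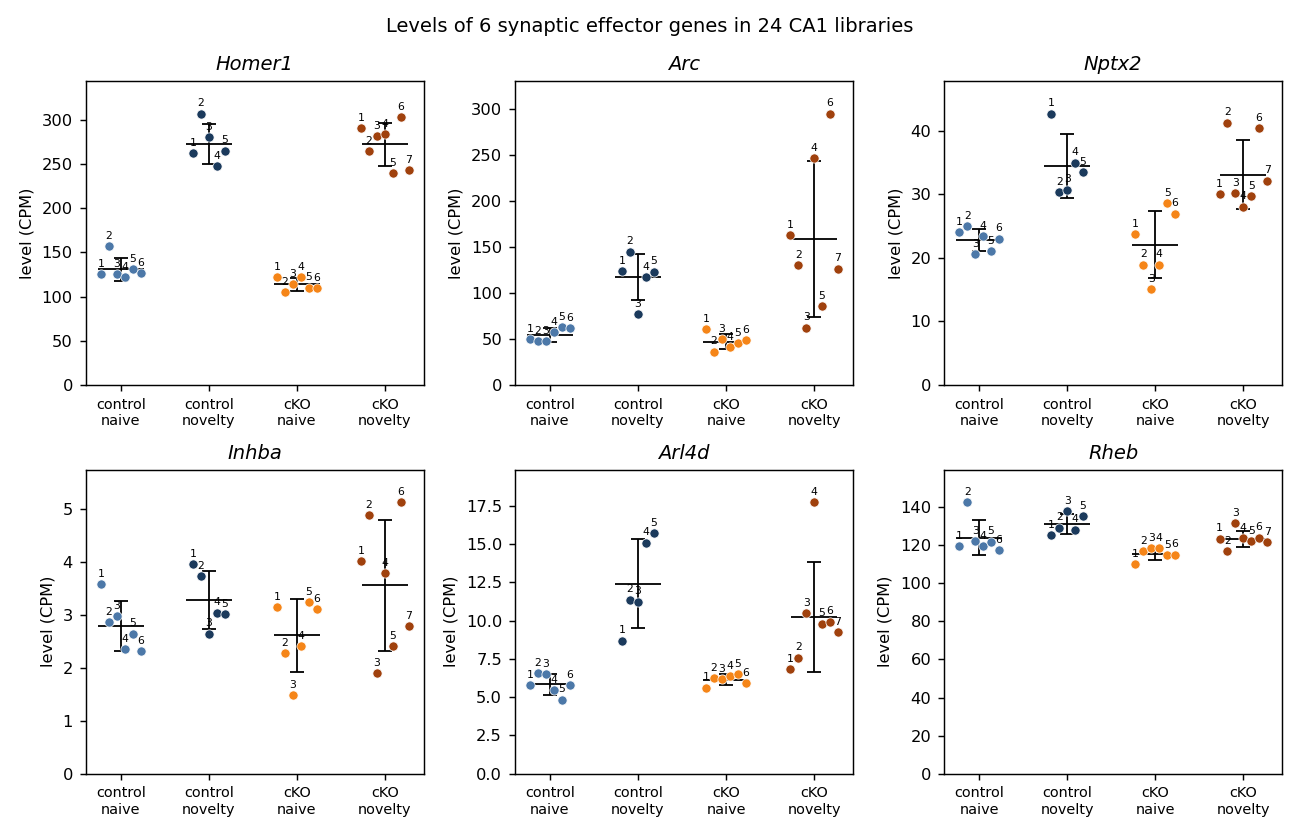
Level of each gene in each of the 24 libraries, in CPM on the y axis starting at 0, by group on the x axis. Points are libraries, numbered within their group, and the bars show mean ± SD (n = 6, 5, 6 and 7). Homer1 is tightly grouped, while the cKO novelty libraries of Arc spread from 62.4 to 295.5 CPM.

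In the average over genotypes, 4.43% of genes were called higher and 6.55% in either direction, and Homer1 (1.16), Arc (1.43), Arl4d (0.92) and Nptx2 (0.59) rose on the log2 scale. Homer1 had the smallest p of all 16744 genes. These averages use the same libraries as the comparisons within each genotype and are no further evidence for them.

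**Figure D3:**
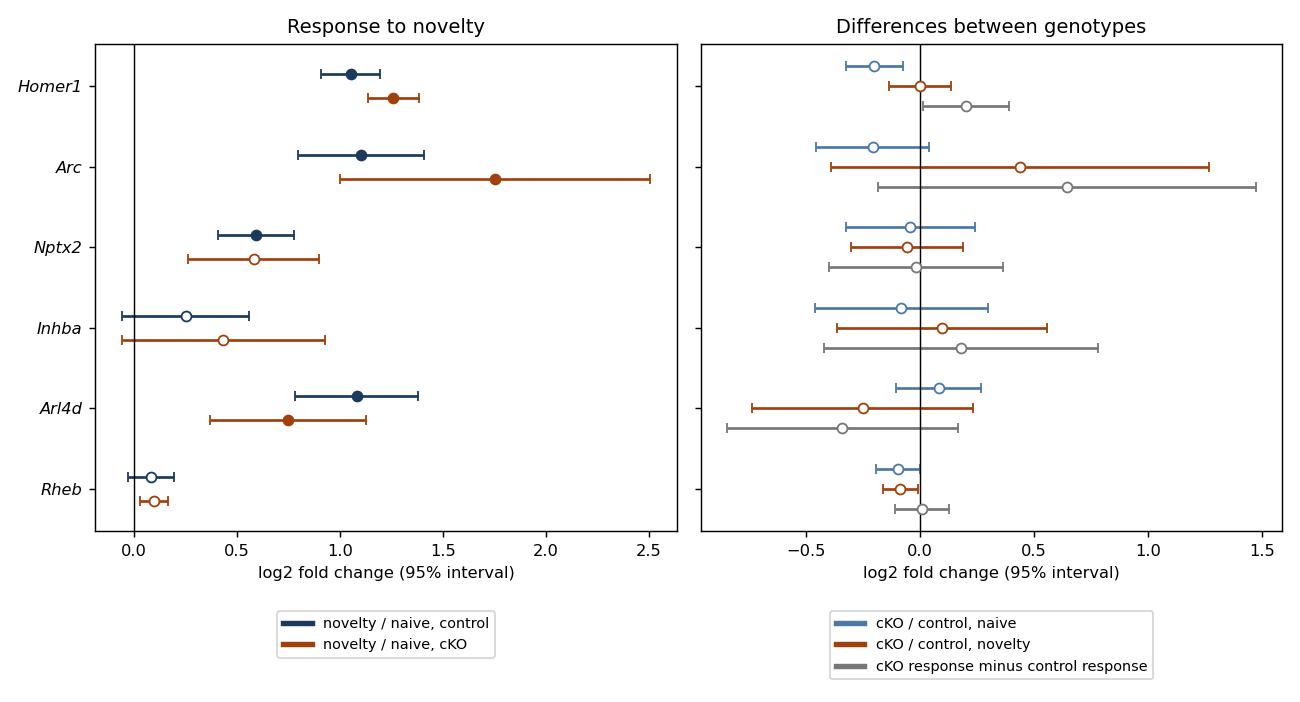
Log2 fold changes of the 6 genes on the x axis with 95% intervals, for the novelty response of each genotype (left) and for differences between genotypes and between responses (right). Filled points have an edgeR adjusted p below 0.05 over all genes, and open points do not. Filled points occur in the left panel only, for Homer1, Arc and Arl4d in both genotypes and for Nptx2 in controls.

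The authors' deposited table for controls listed Homer1 at a log2 fold change of 1.04, Arc at 1.03, Arl4d at 0.9996 and Nptx2 at 0.58, each with an adjusted p below 0.05, in a table that called 2.79% of genes. Inhba (adjusted p = 0.607) and Rheb (adjusted p = 0.557) were not called in the authors' deposited table. For cKO mice the authors' deposited table called 5 of the 6, Homer1 (1.24), Arc (1.22), Arl4d (0.66), Nptx2 (0.54, adjusted p = 0.00324) and Rheb (0.10, adjusted p = 0.0324), where 4.41% of genes were called. Nptx2 and Rheb are called there and not in the edgeR test, and Inhba in neither. For Arc in cKO mice the authors' group means of normalised counts were 931 (naive) and 3140 (novelty). That is a larger ratio than the listed log2 fold change of 1.22 gives. The listed fold changes are thus not plain ratios of group means, and their sizes cannot be set directly against the edgeR values. None of the 6 genes was called in the authors' deposited table for the genotypes in naive mice (3.18% of genes called) or after novelty (8.17%). The nearest there were Homer1 in naive mice (adjusted p = 0.0573) and Rheb after novelty (adjusted p = 0.0886) in the authors' deposited table.

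Per kilobase of annotated exon, which allows levels to be compared between genes, Arc (17.8 CPM per kb) and Rheb (16.0) were highest in control naive libraries. Homer1 (10.9), Nptx2 (9.01), Arl4d (4.22) and Inhba (0.437) followed. In cKO novelty libraries the order was Arc (52.0), Homer1 (22.7), Rheb (16.0), Nptx2 (13.1), Arl4d (7.41) and Inhba (0.558). In control novelty libraries Homer1 was at 22.75 and Rheb at 17.0. Within controls Homer1 thus stood below Rheb in naive tissue and above it after novelty, per length of exon. The exon length counts every annotated exon once, so a gene is understated where short forms are expressed. For Homer1 these counts cannot separate the forms, so its place in the order is uncertain.

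The libraries of a group also differed among themselves, and deviations from the group mean were compared between the genes on the log2 CPM scale. Of the 15 pairs of genes, 1 passed in a two-sided permutation test within groups. Nptx2 and Inhba deviated together, with Pearson's r = 0.682 (permutation p = 0.00112, Benjamini-Hochberg adjusted p = 0.0168, n = 24) and Spearman's rho = 0.595 (permutation p = 0.00664, adjusted p = 0.0996). Without cKO naive libraries 5 and 3, the farthest from the median in Nptx2, r was 0.576. Within the groups r was 0.122 in control naive, 0.537 in control novelty, 0.948 in cKO naive and 0.64 in cKO novelty libraries. Both genes were lowest in cKO naive library 3, and with that library left out no pair passed.

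Arc and Inhba gave r = 0.61 (permutation p = 0.0155, adjusted p = 0.116, rho = 0.474 with permutation p = 0.0461 and adjusted p = 0.173), which fell to 0.343 without cKO novelty libraries 6 and 3. Within the groups r was -0.72 in control naive, 0.776 in control novelty, 0.236 in cKO naive and 0.834 in cKO novelty libraries, so the sign differed between groups. Homer1 and Rheb gave r = 0.517 (permutation p = 0.0408, adjusted p = 0.177, rho = 0.377 with permutation p = 0.0824 and adjusted p = 0.18), which was 0.318 without control novelty library 2 and control naive library 2. In control naive library 2 both genes were highest of their group. Pairs with negative values also fell short of passing. Inhba and Rheb gave r = -0.347 (permutation p = 0.0589, adjusted p = 0.177) and rho = -0.362. Arc and Rheb gave r = -0.34 (permutation p = 0.0492, adjusted p = 0.177) and rho = -0.324. Nptx2 and Rheb gave r = -0.255 and rho = -0.443 (permutation p = 0.0273, adjusted p = 0.136). With positive values, Arl4d and Rheb gave r = 0.322 and rho = 0.515 (permutation p = 0.0181, adjusted p = 0.136), which did not pass either. Homer1 and Arc, the 2 genes with the largest rise in cKO mice, had r = 0.317 (permutation p = 0.195, adjusted p = 0.365, rho = 0.42 with permutation p = 0.066 and adjusted p = 0.18) and 0.397 without control novelty library 2 and control naive library 2.

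**Figure D4:**
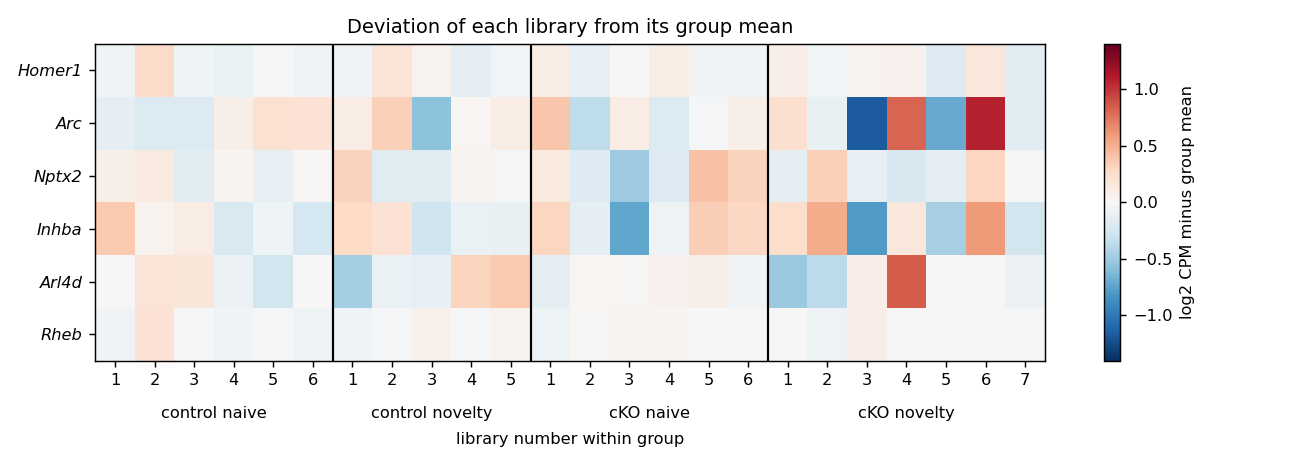
Deviation of each library from its group mean in log2 CPM (colour), for the 6 genes (rows) and the 24 libraries ordered by group (columns). Arc and Inhba are both low in cKO novelty library 3 and both high in library 6, Arl4d is high in library 4, and Homer1 and Rheb vary little.

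The genes whose deviations were most like those of each member were sought over the 24 libraries among 12029 genes with a mean of at least 50 reads, predicted models, Kat2a and the 6 genes themselves left out. For Arc these were Nr4a1 (r = 0.909, rho = 0.852), Btg2 (r = 0.875, rho = 0.559) and Midn (r = 0.826, rho = 0.71). Nr4a1, an orphan nuclear receptor and itself an immediate early gene, read 68.7 CPM in cKO novelty library 3, 79.6 in library 5, 144 in library 4 and 159.5 in library 6, the same order as Arc in those libraries. For Arl4d they were Cldn11 (0.848), a claudin of myelin, S1pr5 (0.805), a sphingosine phosphate receptor of oligodendrocytes, and Arsg (0.763). By rank these were lower, with rho of 0.543, 0.601 and 0.623. Cldn11 read 118.4 CPM in cKO novelty library 4, where Arl4d was also highest, and 63.0 to 76.3 CPM in the rest of that group. How far r rests on that library was not tested. For Nptx2 the most alike were Slitrk5 (0.885), Gng7 (0.883) and Rin1 (0.88), none of which passed in the average novelty response (log2 -0.09 to 0.02).

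For Inhba the most alike were Dnajb5 (0.787), Spag6 (0.778) and Chd4 (0.761), for Homer1 Msl1 (0.822), Hsp90b1 (0.81) and Abcd2 (0.799), and for Rheb Polr3k (0.869), Ctnna2 (0.844) and Spryd7 (0.835). Of these 9 genes Dnajb5 rose after novelty (0.57, SE 0.04, adjusted p = 6.87e-10). Deviations of genes in the same library can share its sequencing depth and tissue content, which was not tested. These values are descriptions chosen as the highest of many.

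Genes whose proteins work with these effectors passed after novelty about as seldom as genes at large. In the average over genotypes 4.43% of all genes were called higher and 6.55% in either direction. Within controls 1.22% were called in either direction, and within cKO mice 2.41%. Of 13 Homer1 partners, among them Shank scaffolds, group 1 metabotropic receptors and the inositol trisphosphate receptor Itpr1, none passed in either genotype, and 1 rose in the average over genotypes (Homer2, 0.14, SE 0.04, adjusted p = 0.0192). The median of the list was 0.01 in that average, beside -0.01 over all genes. Of 18 Arc partners and genes of AMPA receptor endocytosis, such as dynamins, endophilins and AP-2 subunits, none passed in any of the 3 novelty comparisons, and the median was -0.01 (range -0.08 to 0.11) in the average. Among 8 pentraxins and partners only Adam17, a sheddase, passed in the average (0.14, SE 0.04, adjusted p = 0.0465), and the median was -0.02. Of 15 genes of activin signalling, 14 of which could be tested within each genotype, none passed in the 3 novelty comparisons. Their median in the average was 0.04 (range -0.19 to 0.31).

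Of 14 genes of the Rheb and mTORC1 group, Eif4ebp2, a repressor of translation that mTORC1 inhibits, rose in the average (0.18, SE 0.04, adjusted p = 0.00346), and the median was -0.01. None of the 13 Arl4 and Arf genes passed after novelty (median -0.01). Of 20 transcription factor immediate early genes 16 rose in the average, where 4.43% of all genes were called higher, among them Fosb (2.64, SE 0.11), Egr1 (1.80, SE 0.09) and Egr2 (4.40, SE 0.23), with a median of 1.01. In controls 13 of these 20 rose, beside 1.02% of all genes, and in cKO mice 14, beside 1.92%. Of 20 other effector genes 10 rose in the average, with Tiparp (0.72, SE 0.08), Gpr3 (0.83, SE 0.10) and Sgk1 (0.96, SE 0.12) at the smallest p and a median of 0.32, and 6 rose in each genotype, beside the same shares of all genes. No gene of these 8 lists fell after novelty. The lists hold known activity-induced genes and are no independent evidence of their direction.

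**Figure D5:**
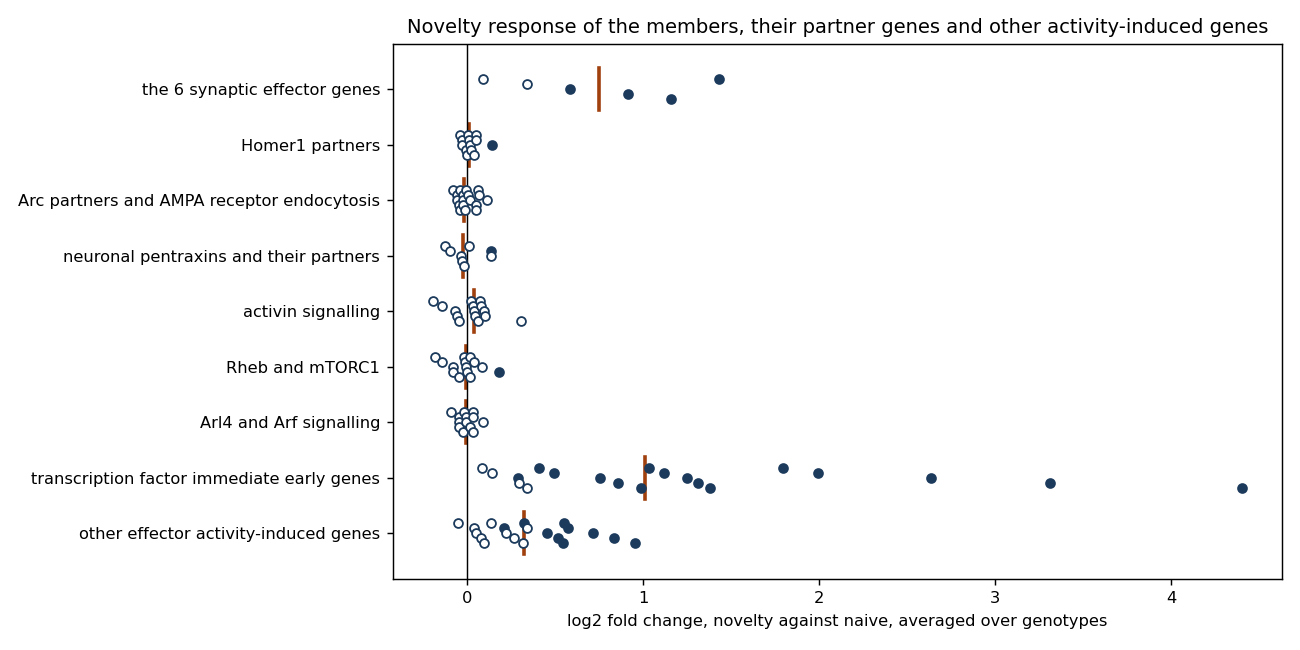
Log2 fold change after novelty, averaged over genotypes (x axis), of the 6 genes, of 6 lists of their partners and of 2 lists of other activity-induced genes (rows). Points are genes, filled where the edgeR adjusted p was below 0.05, and the upright lines are list medians. The medians of the partner lists lie close to 0, while the transcription factor list has its median at 1.01.

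Between genotypes, averaged over exposures, some partner genes passed the test, as did Rheb among the 6 effectors. Over all genes 6.32% were called lower in this comparison and 12% in either direction. Among Arc partners 4 of 18 were lower in cKO mice and none higher, including the AMPA receptor subunit Gria3 (-0.29, SE 0.04, adjusted p = 8.67e-06), the kinase Camk2a (-0.24, SE 0.05, adjusted p = 0.00365) and the AP-2 subunit Ap2b1 (-0.16, SE 0.04, adjusted p = 0.00433), and the list median was -0.05 beside 0.01 over all genes. Among Homer1 partners 3 of 13 were lower, the metabotropic receptor Grm5 (-0.19, SE 0.03, adjusted p = 0.000321), Dlgap1 (-0.15, SE 0.03, adjusted p = 0.00141) and Itpr1, and 1 was higher, the calcium release channel Ryr1 (0.54, SE 0.12, adjusted p = 0.00369). In the mTORC1 group Tsc2 (0.11, SE 0.03, adjusted p = 0.00966), whose protein switches Rheb off, Tbc1d7 (0.15, SE 0.04, adjusted p = 0.0145), a subunit of the same complex, and Mlst8 (0.10, SE 0.03, adjusted p = 0.0423) were higher, and Fkbp1a was lower. Tsc1, of the same list, did not pass. Rheb itself was lower in the same comparison. That call held in 21 of 24 fits without 1 library and was lost with upper-quartile scaling (edgeR adjusted p = 0.0601). A link between these differences was not tested.

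In the remaining lists some genes also differed between genotypes, in a comparison that called 12% of all genes in either direction. Of the pentraxin list C1ql2 was lower (-0.86, SE 0.23, adjusted p = 0.0187), which is also among the dentate granule neuron markers. In the activin list Tgfbr3 was higher (0.20, SE 0.06, adjusted p = 0.0433) and Smad7 lower (-0.17, SE 0.05, adjusted p = 0.0216), and in the Arf list Cyth4, a cytohesin, was higher (0.31, SE 0.08, adjusted p = 0.0112). Of the other effector genes Nrn1 (-0.48, SE 0.06, adjusted p = 1.25e-05), Plk2 (-0.20, SE 0.04, adjusted p = 0.00285) and Bdnf (-0.24, SE 0.08, adjusted p = 0.0384) were lower. Oligodendrocyte markers (4 of 5 lower, medians of 4598 and 4811 CPM in control groups against 3763 and 3451 in cKO groups) and interneuron markers (3 of 5 lower) moved with genotype in the same comparison. So did 2 of 6 dentate granule, 1 of 6 CA1, 1 of 6 CA3 and CA2 and 1 of 4 endothelium markers. All of these were lower in cKO mice, and none of the astrocyte, microglia or choroid plexus markers passed. The 6 CA1 markers had a median log2 difference of -0.16 in that comparison, with a range of -0.22 to -0.07. Their sums per library were 1140 to 1376 CPM in naive controls and 1019 to 1206 in naive cKO mice. After novelty the CA1 sums were 1210 to 1304 CPM in controls and 1020 to 1136 in cKO mice. The part of tissue content in the genotype values was not tested.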

How the data were processed

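The 6 genes and all gene lists were chosen with earlier results of these data known. RNA extraction used TRI reagent and the TruSeq RNA library kit, which does not mark strand, per the labels' protocols. The authors deposited raw read counts per Ensembl gene for each of 24 libraries, and 4 tables of pairwise comparisons. Per the file headers, those tables hold group means of normalised counts (a signal), log2 fold changes with an error, and p-values, raw and adjusted. The submitters' processing notes name STAR 2.3.0, HTSeq, DESeq2 and GRCm38.p2, without roles. For the annotation release and the strand setting of the counting: not given in the sources used here. The kits in the labels' protocols cover paired-end and single-end sequencing without saying which library had which.

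The 5 summary entries per table did not enter library sizes. They held 7.58 to 10.36% of reads with no gene, 14.82 to 17.97% with no unique position and 1.06 to 1.18% ambiguous. The deposited tables named 16355 genes and a reference name table a further 20435. Testing used edgeR 4.0.16 in R 4.3.3 (robust quasi-likelihood F test, TMM, filterByExpr at a minimum count of 10, Benjamini-Hochberg adjustment over all genes tested). Pairwise comparisons used their own groups, and averages and the interaction a fit of 24 libraries. Standard errors were derived from the log2 fold change and F. The code was tested on simulated data. Correlations used log2 CPM (prior count 2) and 100000 permutations within groups.

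Always named were the 6 genes and Kat2a. From each list, up to 3 genes with the smallest p among those that passed in a comparison were named, and for each of the 6 genes the 3 most alike genes that are not predicted models. Itpr1 and Fkbp1a were named outside this rule, after their values were seen. Alternatives were DESeq2 1.42.0, RLE and upper-quartile scaling, no filter, the replicate block, libraries numbered 1 to 3 or 4 and above, each library left out, and a fit of all 24 libraries. Leaving out libraries from the correlations was added after seeing the data.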

Additional observations from a re-analysis of the deposited data

Results flagged for a closer look

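Of the 24 sets of libraries (6 genes in 4 groups), 3 held a library far from the others by Dixon's test at the 95% level, and chance marks about 1 in 20 such sets. Homer1 was at 156.9 CPM in control naive library 2, where the other 5 libraries of the group read 122 to 131 CPM. Rheb was at 142.5 CPM in the same library, where the other 5 read 117 to 122 CPM. Without that library the novelty response of Homer1 in controls was 1.11 on the log2 scale (edgeR adjusted p = 2.85e-08) and that of Rheb 0.12 (edgeR adjusted p = 0.13). Arl4d was at 17.74 CPM in cKO novelty library 4, where the other 6 libraries read 6.82 to 10.5 CPM. Without it the novelty response of Arl4d in cKO mice was 0.55 (edgeR adjusted p = 0.00917).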

How the results depend on the processing

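The calls of Homer1 after novelty held in every alternative run. For novelty in controls 196 genes passed, against 373 by DESeq2, 97 with the replicate block, 25 in libraries numbered 1 to 3 (1 of the 6 genes, Homer1) and 305 in a fit of all 24 libraries. For novelty in cKO 393 passed, against 639 by DESeq2, 207 with the replicate block (1 of the 6, Homer1, with Arc at 1.63, adjusted p = 0.162, and Arl4d at 0.71, adjusted p = 0.0521), 15 in libraries numbered 1 to 3 (1 of the 6) and 70 in those numbered 4 and above (1 of the 6). For genotype in naive mice 131 passed, against 457 by DESeq2, 70 with the replicate block, 3 and 5 in libraries numbered 1 to 3 and 4 and above, and 322 in a fit of all 24 libraries. For genotype after novelty 733 passed, against 1155, 398, 17 and 121 in DESeq2, the replicate block and these subsets. For novelty averaged over genotypes 1097 passed, against 206 and 369 in the subsets, and for genotype averaged over exposures 2017, against 402 and 405, where 0 of the 6 genes passed in either subset, with upper-quartile scaling or with the replicate block, beside 1. The subsets hold fewer libraries; for the other settings the cause was not tested. Signs turned only for differences that did not pass. In naive mice the genotype difference was 0.028 for Arc and -0.062 for Arl4d in libraries 1 to 3, and 0.15 for Nptx2 and 0.27 for Inhba in libraries 4 and above. After novelty that of Homer1 was -0.00586 by DESeq2, -0.00468 with RLE size factors, -0.00157 without a filter, -0.000654 with the replicate block, -0.020 in libraries 1 to 3 and -0.00246 in a fit of all 24. Averaged, Nptx2 was 0.036 in libraries 4 and above, and Inhba -0.015 with the replicate block and -0.20 in libraries 1 to 3. The interaction was 0.22 for Nptx2 in libraries 1 to 3, and -0.043 for Inhba and -0.054 for Rheb in libraries 4 and above.

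Leaving out 1 library at a time gave 113 to 255 genes for novelty in controls, 238 to 452 for novelty in cKO (1 to 3 of the 6 genes), 40 to 166 for genotype in naive mice, 324 to 1025 for genotype after novelty and 0 to 1 of the 6 for genotype averaged. The genotype difference ran from -0.13 to 0.047 for Nptx2 and -0.15 to 0.036 for Inhba in naive mice, and from -0.031 to 0.048 for Homer1, -0.11 to 0.034 for Nptx2 and -0.016 to 0.19 for Inhba after novelty. Averaged, it ran from -0.051 to 0.065 for Inhba, and the interaction from -0.10 to 0.074 for Nptx2 and -0.033 to 0.029 for Rheb. Between 0 and 1 pair of genes passed in the correlations. With 30 to 131 reads per library, counting error limits Inhba most. With upper-quartile scaling, of all genes called, 67% against 79.9% were higher for novelty in cKO, 53.9% against 67.5% for novelty averaged over genotypes and 58.5% against 47.5% for genotype averaged over exposures. The deviations of same-numbered libraries correlated at over 0.1 in 7 of 33 pairs (r from -0.128 to 0.316, median 0.003). Differently numbered libraries were not compared, so whether the numbers pair the libraries is not settled.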

Other observations

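The genotypes were also compared for the immediate early genes that encode transcription factors. In the average over exposures 1 of 20 was higher in cKO mice (Klf10, 0.24, SE 0.07, edgeR adjusted p = 0.0179) and 1 was lower (Fosl2), where 12% of all genes were called in either direction. In naive mice 1 of the 20 passed, Fosl2, at 43.0 CPM in cKO mice against 61.3 in controls, where 0.801% of genes were called. None of the 20 passed after novelty, where their median difference was 0.19 beside 0.01 over all genes tested. Fosl2 then stood at 101 CPM in cKO mice and 102 in controls.

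Among libraries numbered 1 to 3 the log2 difference of Arc after novelty in cKO mice was 1.28 (edgeR adjusted p = 0.53), and among those numbered 4 and above 2.06 (edgeR adjusted p = 0.257), neither of which passed. In controls the corresponding values were 1.26 (edgeR adjusted p = 0.201) and 0.99 (edgeR adjusted p = 1.37e-07), in the opposite order.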
